A study of Rattus norvegicus with 6 samples.

Results

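The peroxisome genes described here were 35 genes listed by symbol, 13 that assemble the organelle (the peroxins), 5 that code for proteins of its membrane and 17 that code for its enzymes, out of 18825 genes in the deposited table. All 35 were in the table, and 34 had enough reads to be tested. The wounds were full-thickness wounds of the back skin of male Sprague–Dawley rats made diabetic with a high-fat/high-sucrose diet and streptozotocin, a toxin of insulin-producing cells. Control wounds (3 libraries) were left untreated, and DST-MNs wounds (3 libraries) received microneedles that carried spheroids of dental pulp stem cells regulated by spermidine and TGF-β3. Both groups were diabetic, and no arm with bare microneedles or cells alone was analysed here. The sources used here do not give the age of the rats, how many rats went into a library or the day of collection.

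Peroxisomes are small organelles that shorten very long and branched fatty acids by beta- and alpha-oxidation, make the precursors of ether lipids and break down hydrogen peroxide with catalase. Their enzymes are made in the cytosol and carried in by peroxins, and fatty acids enter through transporters of the ABC family. In skin, the sebaceous gland makes unusual lipids and is known to be rich in peroxisomes. Many genes of peroxisomal oxidation are known targets of the lipid-sensing receptor PPARα.

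Each library held 12545206 to 13818548 counts, of which the 35 genes took 0.0965% to 0.108% in the controls and 0.134% to 0.147% in the treated wounds. Levels are given as normalised CPM, read counts set to a common depth with edgeR's TMM factors, or as TPM, which also divides by gene length and is used to compare genes with each other. Changes are log2 changes, treated against control, with standard error (SE), tested with edgeR's quasi-likelihood test, and p-values were adjusted by Benjamini-Hochberg over the 14427 genes tested with a threshold of 0.05. The samples were bulk tissue, so a difference in the number of cells of a type and one in RNA per cell cannot be told apart. Summed markers of skin cells varied widely between libraries of a group. The 8 keratinocyte markers summed to 18.1 CPM in Control 2 against 182 and 235 in the other controls. The 8 skeletal muscle markers summed to 14.4 CPM in Control 2 against 5908 in Control 1. Among the treated wounds, the keratinocyte sum was 4682 CPM in DST-MNs 1 against 286 and 1448 in DST-MNs 2 and 3. The 8 hair follicle markers summed to 1406 CPM in DST-MNs 1 against 5.43 and 10.4 in DST-MNs 2 and 3.

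Hacl1, Pxmp4 and Crot rose in the treated wounds, and no peroxisome gene fell at the threshold. Hacl1 makes the lyase of alpha-oxidation, Pxmp4 makes a protein of the peroxisomal membrane, and Crot makes the carnitine transferase through which shortened fatty acids leave. The peroxins did not pass the test in either direction. Of the 34 genes tested, 3 were called higher and 0 lower by edgeR, while 0.658% of all genes tested were called higher and 0.118% lower. At an unadjusted p below 0.05, 9 of the 34 were higher and 0 lower, beside 9.80% of all genes higher and 6.88% lower. The Wald test of DESeq2 called 4 of the 34 higher and 0 lower, the same 3 genes and Abcd3, beside 4.36% of genes higher and 2.73% lower. In 11 of the 34 the groups did not overlap, each time with the treated libraries higher. Of all genes tested, 12.9% had all treated libraries above all controls, and 22.9% had groups apart in either direction.

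The log2 change was positive in 30 of the 34 genes (31 with upper-quartile factors, where Pex13 turned positive, and 32 with total counts, where Pex13 and Phyh did), against 50.5% of all genes tested. The list was chosen with earlier results of these data known. Among peroxisomal genes not on it, 71.4% of the 14 tested for assembly and division were positive. The share was 70.8% for the 24 other enzymes and transporters tested. The median log2 change was 0.24 over the 34 genes and 0.0044 over all genes. Scaling by total counts raised the median of all genes to 0.12 and that of the peroxisome genes to 0.35. Most shifts were small: 9 of the 34 moved by more than 0.5 on the log2 scale (26.5%, against 22.8% of all genes), and without the 3 called genes, whose removal can only lower it, the median was 0.17. In RefSeq, 8 of the 35 genes overlap another coding gene (Pex7, Pex6, Pex11g, Acox3, Acaa1a, Ech1, Gnpat and Acot8), and how the counting divided such reads is not known, so their values are less certain. None of the 3 called genes is among them.

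**Figure D1:**
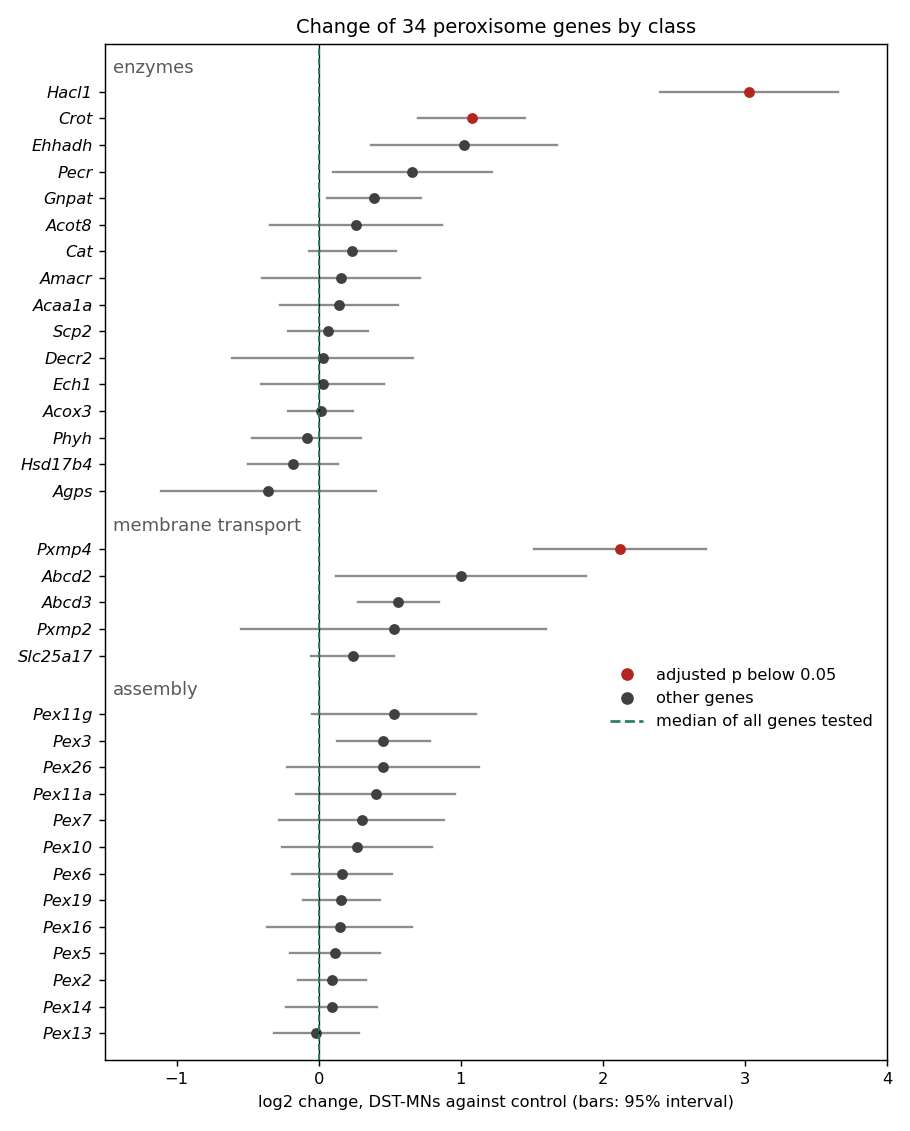
Log2 change of the 34 tested peroxisome genes (points) with 95% intervals (bars), DST-MNs against control, grouped by class, with called genes in red and the median of all genes tested as a dashed line. Hacl1 and Pxmp4 stand to the right of the rest, and every assembly gene lies between -0.016 and 0.53. Crot (1.08) lies close to Ehhadh (1.02) and Abcd2 (1.00), which were not called.

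The bases before the annotated starts of the 3 called genes are shown so that the promoters of the genes that rose can be set side by side. Each line is the 250 bases before the RefSeq start in build GRCr8, read 5′ to 3′ on the gene's strand, and capitals mark CCAAT and GGGCGG boxes on either strand (ATTGG and CCGCCC on the other strand). The windows are chr16:6869411-6869660 on the minus strand for Hacl1, chr3:163570830-163571079 on the minus strand for Pxmp4 and chr4:26052874-26053123 on the plus strand for Crot, where the start used lies inside the span annotated for the gene.
Hacl1: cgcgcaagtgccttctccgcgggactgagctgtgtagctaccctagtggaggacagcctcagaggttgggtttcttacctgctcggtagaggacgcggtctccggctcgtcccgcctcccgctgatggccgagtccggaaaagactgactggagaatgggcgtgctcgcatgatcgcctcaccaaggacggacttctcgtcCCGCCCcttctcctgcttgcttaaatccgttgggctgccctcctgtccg
Pxmp4: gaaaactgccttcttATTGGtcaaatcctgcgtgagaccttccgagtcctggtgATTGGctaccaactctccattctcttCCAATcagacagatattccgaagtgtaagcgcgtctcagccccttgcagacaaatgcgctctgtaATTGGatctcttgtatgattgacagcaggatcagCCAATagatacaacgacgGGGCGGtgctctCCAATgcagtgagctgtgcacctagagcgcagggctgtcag
Crot: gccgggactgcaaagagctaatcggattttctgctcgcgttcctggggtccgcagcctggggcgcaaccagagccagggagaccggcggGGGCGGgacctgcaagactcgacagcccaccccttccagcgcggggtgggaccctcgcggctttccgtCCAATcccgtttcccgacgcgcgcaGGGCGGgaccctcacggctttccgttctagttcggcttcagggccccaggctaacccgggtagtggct
The Pxmp4 window held 6 CCAAT boxes, the Crot window 1 and the Hacl1 window 0. At least 5 stood in 60 of 33469 rat promoter windows (0.179%), and at least 1 in 11385 of them. GGGCGG boxes, 2 in Crot and 1 each in Hacl1 and Pxmp4, were found in 78.1% of the 32 peroxisome genes with a window and in 30.5% of all windows. For either motif, the share over all windows was taken without a filter for expressed or tested genes. It is thus not a background of genes like the members. Both motifs were chosen after the sequences were seen, and they did not overlap each other.

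The element bound by PPARα with its partner RXR is 2 copies of AGGTCA spaced by 1 base. It was searched on both strands in the windows of 300 bases that also take in 50 bases after the start, with up to 2 mismatches. It stood in 3 of the 32 windows, those of Acot8 (1 mismatch), Amacr and Cat (2 mismatches each), against 3.77% of all windows, again unfiltered. The closest matches in the Hacl1, Crot and Pxmp4 windows had 5, 5 and 4 mismatches. A match is a string of letters in the window and not a measured site. Sequence outside the windows was not searched. The window of Ehhadh, described below as a known PPARα target, also had no match, with 3 mismatches at best. A window without a match thus does not show that a gene lacks the element.

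Hacl1 and Phyh act one after the other in alpha-oxidation, the route that removes a single carbon from phytanic acid and other branched fatty acids. Phyh makes the hydroxylase, and Hacl1 (gene ID 85255) makes the lyase that then splits off the carbon. Hacl1 also splits straight hydroxy fatty acids. Its CPM was 11.9, 10.2 and 12.1 in Control 1, 2 and 3 and 68.2, 81.5 and 129.8 in DST-MNs 1, 2 and 3. The controls lay within a narrow band and every treated library stood well above them, with DST-MNs 3 the highest. The log2 change was 3.03 (SE 0.26), an 8.15-fold rise with a 95% interval of 5.27 to 12.6, and edgeR's adjusted p was 0.00982. By p, Hacl1 ranked 15 of the 14427 genes tested. It stayed past the threshold in each of the 6 fits that left out a library, with adjusted p between 0.0191 and 0.0467.

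Phyh did not pass the test. It stood at 23.1, 17.6 and 24.6 CPM in the controls and at 19.8, 20.4 and 21.4 CPM in the treated wounds. The groups overlapped, and the change of -0.083 had a 95% interval from -0.47 to 0.30 (edgeR adjusted p = 0.831). On the length-scaled measure, the ratio of Hacl1 TPM to Phyh TPM was 0.274, 0.310 and 0.264 in the controls and 1.83, 2.12 and 3.24 in the treated wounds. In the controls the lyase transcript was thus the lower of the pair in every library, and in the treated wounds it was the higher in every library.

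Pxmp4 (gene ID 282634) stood at 14.0, 8.38 and 11.2 CPM in the controls and at 40.1, 62.4 and 43.6 CPM in the treated wounds. Every treated library lay above every control, and DST-MNs 2 was the highest. The log2 change was 2.12 (SE 0.25), a 4.35-fold rise with a 95% interval of 2.86 to 6.62 (edgeR adjusted p = 0.0247). Of the 6 fits that left out a library, Pxmp4 was past the threshold in 1, without Control 1, and adjusted p reached 0.0998 without Control 3. Its log2 change stayed between 1.91 and 2.31 in those fits. Pxmp4 had the highest mean TPM of the 5 membrane genes in the treated wounds, 62.7 ± 16.5 against 12.9 ± 3.05 in the controls (mean ± SD, n = 3).

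Crot (gene ID 83842) joins the medium-length products of peroxisomal oxidation to carnitine, the form in which they go on to mitochondria. Its CPM was 48.9, 53.6 and 57.8 in the controls and 90.4, 127.6 and 120.2 in the treated wounds. The groups did not overlap, and DST-MNs 1 was the lowest of the treated libraries. The log2 change was 1.08 (SE 0.16), a 2.11-fold rise with a 95% interval of 1.62 to 2.74 (edgeR adjusted p = 0.0434). Crot was past the threshold in 1 of the 6 fits that left out a library, without DST-MNs 1, and adjusted p reached 0.198 without Control 2. With at least 10 counts required in every library, Crot also missed the threshold (adjusted p = 0.0532). Acot8, the thioesterase that frees such products from coenzyme A, had a log2 change of 0.26 (adjusted p = 0.642) and overlapping groups.

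Summed TPM of the 3 called genes was 47.7 ± 4.83 in the controls and 199 ± 29.4 in the treated wounds. Summed TPM of all 35 genes was 734 ± 32.0 and 1045 ± 21.2 (mean ± SD, n = 3). The 3 genes therefore accounted for 152 of the 311 TPM gained. They were picked for having risen in these libraries, so their part of the gain was bound to be large. TPM is not scaled with the TMM factors, and on log2(TPM + 1) the median change of all genes was 0.12, so part of the gain is shared with other genes.

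**Figure D2:**
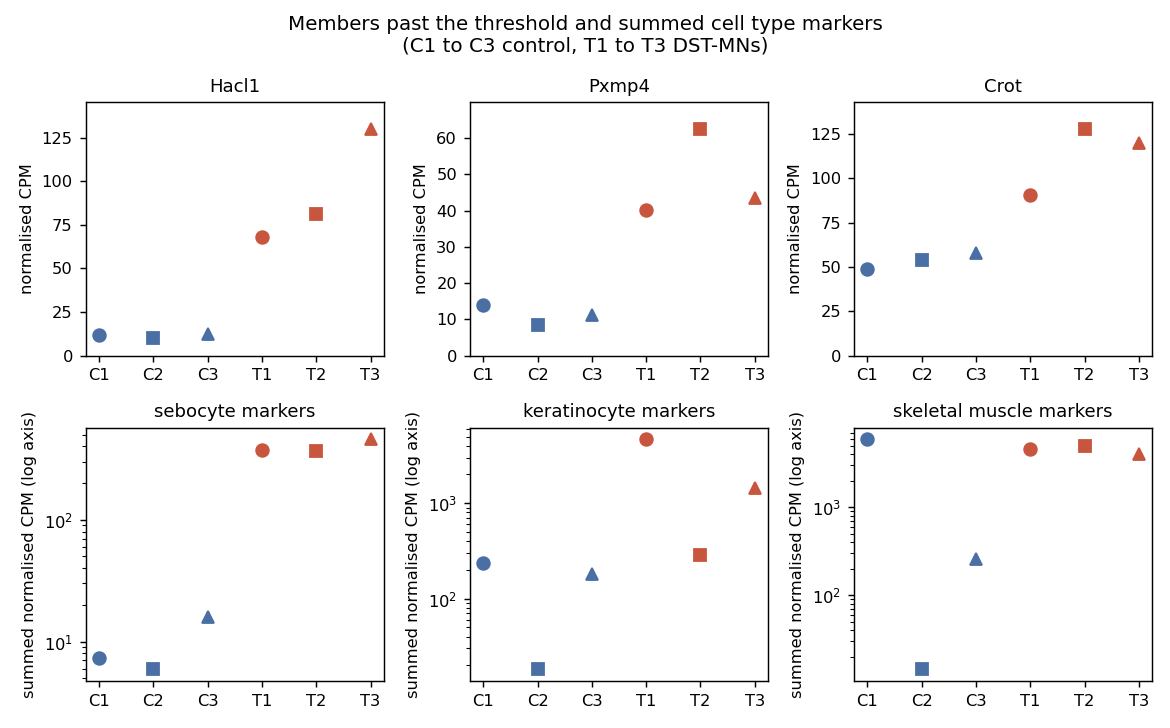
Upper row, normalised CPM of Hacl1, Pxmp4 and Crot in each library (C1 to C3 control, T1 to T3 DST-MNs); lower row, summed normalised CPM of the markers of 3 cell types on a log axis. The 3 genes and the sebocyte markers are higher in every treated library than in every control, the keratinocyte markers are too but vary more, and the muscle markers overlap because C1 is high.

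Summed markers of cell types went different ways: sebocyte and keratinocyte sums were higher in the treated wounds, macrophage and endothelial sums lower, and the others overlapped. The 8 sebocyte markers (Awat1, Awat2, Elovl3, Elovl4, Mc5r, Mogat2, Krt79 and Far2) summed to between 5.90 and 15.9 CPM in the controls and between 365 and 458 CPM in the treated wounds. Of the 8, 4 were called higher and 0 lower, 7 lay higher in every treated library and 1, Mogat2, lay lower. Awat1, an enzyme of wax ester synthesis, stood at 0.232, 0 and 0.389 CPM in the controls and at 28.0, 30.5 and 20.0 CPM in the treated wounds, while Awat2, Elovl3 and Mc5r were also at 0 in Control 2. Keratinocyte markers summed to 18.1 to 235 CPM in the controls and 286 to 4682 CPM in the treated wounds, with 0 of 7 tested called. Summed macrophage markers were lower (1526 to 1640 against 1040 to 1438 CPM). The endothelial sum was too (1244 to 1403 against 895 to 1215 CPM), with 0 of 8 called in each list. Single markers were mixed, and 3 of the 8 macrophage and 1 of the 8 endothelial markers had positive changes. Only 3 macrophage and 2 endothelial markers lay lower in every treated library, beside 22.9% of all genes with groups apart in either direction. Summed adipocyte, fibroblast, hair follicle and skeletal muscle markers overlapped between the groups. The part of these cell types in the rise of Hacl1, Pxmp4 and Crot was not tested. Control 2, where keratinocyte and muscle markers were lowest, had the lowest Hacl1 and Pxmp4 of the controls and a Crot level between those of the other 2.

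The genes on either side of the 3 called genes, in the gene order of GRCr8, did not pass the test. The Hacl1 neighbours Colq and Btd had log2 changes of 0.44 (adjusted p = 0.766) and -0.20 (adjusted p = 0.634). The Pxmp4 neighbours E2f1 and Zfp341 had changes of -0.59 (adjusted p = 0.357) and 0.48 (adjusted p = 0.366). For the Crot neighbours Tmem243 and Abcb4 the values were -0.033 (adjusted p = 0.960) and 0.73 (adjusted p = 0.274).

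The peroxins build the organelle. None of the 13 was called (0 higher, 0 lower), beside 0.658% of all genes called higher and 0.118% lower. At an unadjusted p below 0.05, 1 was higher and 0 lower, beside 9.80% and 6.88% of all genes. These counts therefore do not set the peroxins apart from other genes. Their median log2 change was 0.17, with 12 positive and 1, Pex13, negative (13 positive with upper-quartile factors or total counts). Pex3, with Pex16 and Pex19, places proteins in the peroxisomal membrane. Pex3 stood at 16.6, 15.3 and 18.9 CPM in the controls and at 22.2, 23.3 and 24.1 CPM in the treated wounds. All treated libraries lay above all controls, and Pex3 had the smallest p of the peroxins (log2 change 0.46, 95% interval 0.13 to 0.78, unadjusted p = 0.0135, edgeR adjusted p = 0.188). Pex19, the chaperone of those membrane proteins and the peroxin of highest mean TPM (40.2), stood at 60.0, 57.3 and 56.1 CPM in the controls and at 67.6, 69.3 and 56.7 CPM in the treated wounds. The groups overlapped because DST-MNs 3 lay at the level of the controls. The change of Pex19 was 0.16 (adjusted p = 0.524), and that of Pex16 was 0.15 (adjusted p = 0.762).

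Pex11a and Pex11g make proteins that elongate the membrane before peroxisomes divide. Pex11g stood at 3.01, 2.56 and 3.34 CPM in the controls and at 4.47, 4.18 and 4.24 CPM in the treated wounds. The groups did not overlap, yet the change of 0.53 did not pass the test (adjusted p = 0.333). Pex11a stood at 9.74, 10.1 and 16.3 CPM in the controls and at 16.2, 16.1 and 15.4 CPM in the treated wounds. Control 3 lay above all treated libraries while the other controls lay well below them (log2 change 0.40, adjusted p = 0.440).

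Pex5 is the receptor that carries most enzymes into the organelle, Pex7 carries a smaller group, and Pex13 and Pex14 form the docking site. Pex5 stood at 59.3, 49.6 and 52.0 CPM in the controls and at 50.0, 61.5 and 63.0 CPM in the treated wounds. The groups overlapped (log2 change 0.12, 95% interval -0.20 to 0.43, adjusted p = 0.696). The changes of Pex7, Pex13 and Pex14 were 0.30, -0.016 and 0.092 with adjusted p from 0.573 to 0.963, and their groups overlapped. Pex2 and Pex10, of the ubiquitin ligase that marks the receptor for return, had every treated library above every control, but their changes were 0.093 and 0.27 (adjusted p = 0.683 and 0.579). Pex26 anchors the ATPase subunit Pex6, which helps pull the receptor out. It stood at 13.4, 7.92 and 10.4 CPM in the controls and at 19.0, 13.2 and 11.2 CPM in the treated wounds. The groups overlapped (log2 change 0.45, adjusted p = 0.464), as they did for Pex6 (0.17, adjusted p = 0.609).

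**Figure D3:**
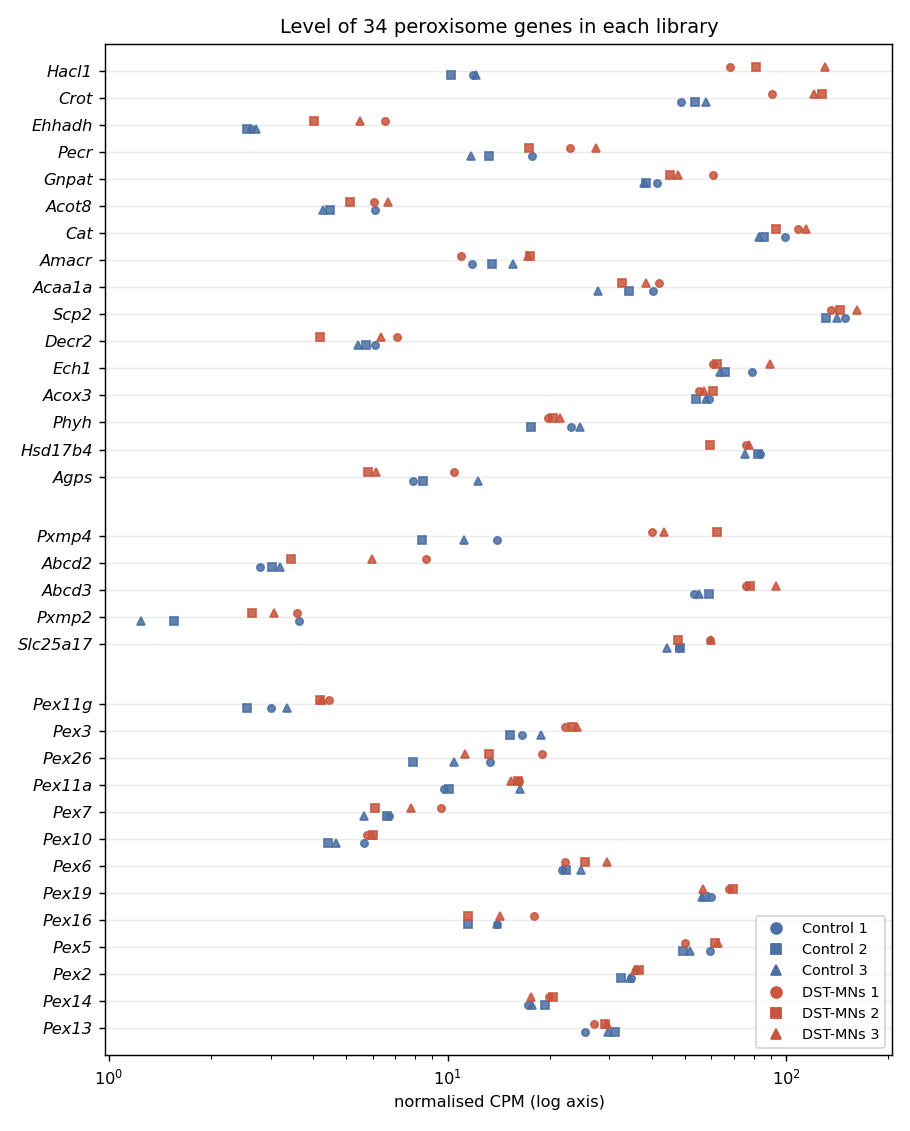
Normalised CPM on a log axis of the 34 tested peroxisome genes in each library, with controls in blue and DST-MNs libraries in red, in the order of the log2 change within each class. The widest gaps between the groups are those of Hacl1 and Pxmp4, and in 9 of the 13 peroxins the groups overlap. Of all genes tested, 22.9% had groups apart in either direction.

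All 5 genes of the membrane had positive log2 changes, with a median of 0.56. Pxmp4 alone, 1 of the 5, was called, beside 0.658% of all genes called higher. Without Pxmp4 the median was 0.54. Abcd3, an importer of branched and dicarboxylic fatty acids, stood at 53.2, 59.1 and 55.1 CPM in the controls and at 75.8, 77.9 and 93.3 CPM in the treated wounds. The groups did not overlap. The change of 0.56 (95% interval 0.28 to 0.85) missed the threshold with edgeR (adjusted p = 0.110) and passed it with DESeq2 (adjusted p = 0.00409). Abcd2, an importer of very long fatty acids, stood at 2.78, 3.03 and 3.19 CPM in the controls and at 8.60, 3.45 and 5.97 CPM in the treated wounds. DST-MNs 2 lay just above the highest control, and the change of 1.00 (SE 0.37) did not pass the test (adjusted p = 0.253).

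Slc25a17 makes the carrier that brings cofactors such as coenzyme A into the organelle. It had the highest TPM of the membrane genes as a mean over all 6 libraries (45.9), although Pxmp4 was higher in the treated wounds (62.7 against 52.2). It stood at 48.3, 48.6 and 44.5 CPM in the controls and at 59.4, 47.7 and 59.7 CPM in the treated wounds. DST-MNs 2 lay within the controls (log2 change 0.24, adjusted p = 0.382). Pxmp2, a channel for small solutes, was low, between 1.24 and 3.63 CPM over all libraries, with overlapping groups (0.53, adjusted p = 0.595).

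Of the 16 enzymes tested, 2 were called higher (Hacl1 and Crot) and 0 lower, beside 0.658% and 0.118% of all genes. Their median log2 change was 0.15, and with a library left out it ran from 0.095 (without DST-MNs 3) to 0.24 (without DST-MNs 2). Beta-oxidation starts with an acyl-CoA oxidase, goes on with a bifunctional enzyme and ends with a thiolase. Acox3, an oxidase of branched fatty acids, stood at 59.0, 54.2 and 57.8 CPM in the controls and at 55.3, 60.6 and 57.0 CPM in the treated wounds. The groups overlapped within a narrow range, and the change was 0.016 with a 95% interval from -0.21 to 0.24 (adjusted p = 0.949). Acox2, an oxidase of bile acid intermediates known mainly from liver, had at most 2 counts in a library and was not tested.

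The 2 bifunctional enzymes had log2 changes of opposite sign. Ehhadh, of the L-form and a known PPARα target, stood at 2.63, 2.56 and 2.72 CPM in the controls and at 6.54, 4.04 and 5.50 CPM in the treated wounds. The groups did not overlap, but the change of 1.02 (SE 0.27) missed the threshold (adjusted p = 0.159). Hsd17b4, of the D-form that handles branched and very long fatty acids, stood at 83.6, 82.1 and 75.7 CPM in the controls and at 75.9, 59.4 and 77.4 CPM in the treated wounds. The groups overlapped (log2 change -0.18, adjusted p = 0.534). Hsd17b4 was by far the more abundant of the pair per length, with a mean of 42.7 TPM against 1.89 TPM for Ehhadh. The thiolases Acaa1a and Scp2 and the racemase Amacr had changes of 0.14, 0.066 and 0.16 with overlapping groups (adjusted p from 0.723 to 0.816).

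Ech1, Decr2 and Pecr handle double bonds in unsaturated and branched chains. Ech1, which also works in mitochondria, had the highest mean TPM of all 35 genes (112). It stood at 79.1, 65.8 and 63.6 CPM in the controls and at 60.8, 62.5 and 89.3 CPM in the treated wounds. DST-MNs 3 was the highest and DST-MNs 1 the lowest of all libraries (log2 change 0.028, adjusted p = 0.955), and leaving out DST-MNs 3 turned the change to -0.17. The change of Pecr was 0.66 (adjusted p = 0.240) and that of Decr2 0.028 (adjusted p = 0.969), with overlapping groups in both.

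Gnpat and Agps make the enzymes of the opening steps of ether lipid synthesis. Gnpat stood at 41.3, 38.4 and 37.9 CPM in the controls and at 60.8, 45.3 and 48.0 CPM in the treated wounds. All treated libraries lay above all controls, without passing the test (log2 change 0.39, adjusted p = 0.238). Agps stood at 7.88, 8.46 and 12.3 CPM in the controls and at 10.5, 5.80 and 6.13 CPM in the treated wounds. DST-MNs 1 lay among the controls and the other 2 below them, with a change of -0.35 (95% interval -1.11 to 0.40, adjusted p = 0.613). Cat, catalase, stood at 99.2, 85.9 and 83.0 CPM in the controls and at 108.2, 93.4 and 114.5 CPM in the treated wounds. DST-MNs 2 lay within the controls (log2 change 0.24, adjusted p = 0.408).

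Averaged over a class, the mean log2 CPM of assembly genes and that of enzymes were both higher in every treated library than in every control. Single genes overlapped between the groups in 9 of 13 peroxins and 12 of 16 enzymes. Beside them, 22.9% of all genes tested had groups apart in either direction and the rest overlapped. The mean log2 CPM of the 13 peroxins was 4.01, 3.89 and 4.04 in the controls and 4.27, 4.19 and 4.20 in the treated wounds. That of the 16 enzymes was 4.65, 4.51 and 4.57 against 4.98, 4.82 and 5.10. The mean of the 5 membrane genes was 3.73, 3.41 and 3.40 against 4.50, 4.23 and 4.44. The gap between enzymes and peroxins in a library was 0.64, 0.62 and 0.53 in the controls and 0.71, 0.64 and 0.90 in the treated wounds. Those gaps overlapped (0.60 ± 0.058 against 0.75 ± 0.13, mean ± SD, n = 3). On log2(TPM + 1) they were 0.69, 0.65 and 0.58 in the controls and 0.76, 0.69 and 0.96 in the treated wounds. On that scale the groups were barely apart, with 0.6917 in Control 1 and 0.6924 in DST-MNs 2. That distance was far smaller than the spread within a group. Without the called enzymes Hacl1 and Crot, the log2 CPM gap was 0.59 ± 0.073 in the controls and 0.51 ± 0.13 in the treated wounds, again overlapping. Leaving out called genes that rose can only lower the difference. The median log2 change was 0.15 for enzymes and 0.17 for peroxins.

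**Figure D4:**
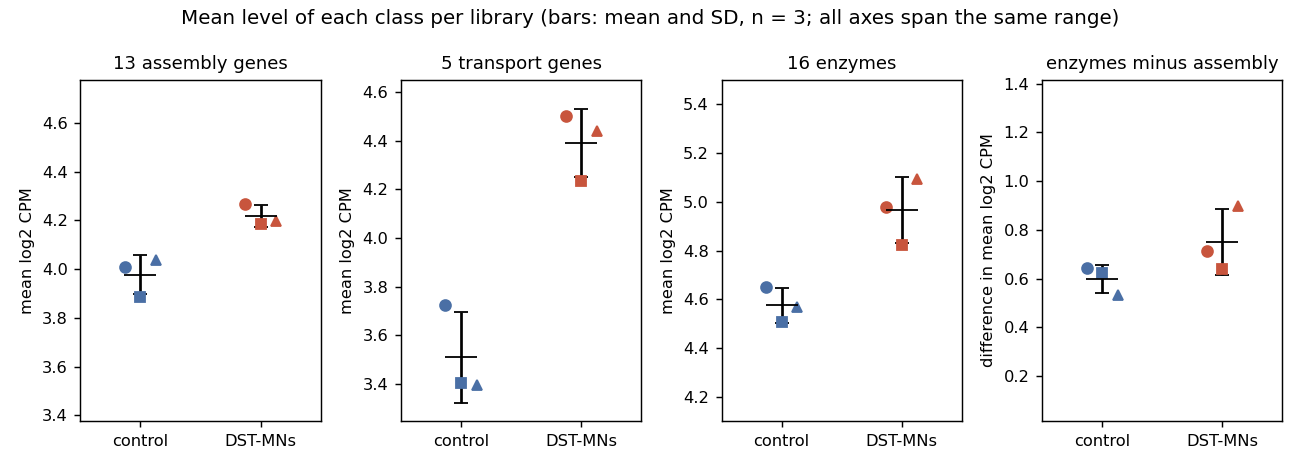
Mean log2 CPM over the tested genes of each class in each library, and the enzyme mean minus the assembly mean, with the mean and SD of 3 libraries as bars and axes of equal span. The 3 class means are higher in every treated library, by 0.24 for assembly, 0.88 for membrane genes and 0.39 for enzymes on average, and the gap between enzymes and assembly overlaps between the groups. Without Hacl1 and Crot (not drawn) that gap was 0.59 in the controls and 0.51 in the treated wounds on average.

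Of 80 further genes of the pathway that were listed as peroxisomal, as PPAR genes or as mitochondrial fatty acid oxidation, 67 were tested. Among these, 1 was called higher and 0 lower, beside 0.658% and 0.118% of all genes, and the median log2 change was 0.068. The called gene was Acadm, the medium-chain dehydrogenase of mitochondria, which takes up the chain lengths that Crot passes on. It stood at 68.2, 60.8 and 57.5 CPM in the controls and at 119, 135 and 159 CPM in the treated wounds. The groups did not overlap (log2 change 1.15, SE 0.14, adjusted p = 0.0281), and Acadm passed in 1 of the 6 fits that left out a library, without Control 1. In the same list of 18 genes the median was 0.034, with Hadh at 0.47 (adjusted p = 0.108) and the carnitine transferase Cpt1a at -0.58 (adjusted p = 0.158).

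Of the 24 other peroxisomal enzymes and transporters tested, 0 were called and the median was 0.10. Their changes were positive in 17 and negative in 7, while 50.5% of all genes tested were positive. Prdx5, a peroxidase also found in mitochondria, had a change of -0.81 (adjusted p = 0.191).

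Of 14 other genes of assembly and division tested, 0 were called and the median was 0.073, with Gdap1 at 2.05 (adjusted p = 0.156). Of 11 genes of the PPAR receptors and their co-regulators, 0 were called and the median was 0.28. Ppara, which makes PPARα, stood at 5.25, 3.26 and 4.43 CPM in the controls and at 9.56, 8.29 and 7.38 CPM in the treated wounds. All treated libraries lay above all controls, and the change of 0.96 did not pass the test (adjusted p = 0.161). Tfeb, a regulator of lysosome genes, had a change of 0.49 (adjusted p = 0.179).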

How the data were processed

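Per the labels' protocols, TRIzol-extracted RNA of 6 wound samples was made into mRNA libraries and read from both ends on a DNBSEQ-T7. The labels call the samples biological replicates, and groups were taken from their titles. The authors deposited 1 table of 18825 genes. Its estimated counts are unscaled read counts per gene per the file headers, 90.5% to 91.4% of them whole. The deposited TPM values are the authors' and were used for levels and 2 alternatives. The deposited FPKM values and the normalised counts, a signal made by the authors by scaling the counts, were not tested. The build was mRatBN7.2 per the submitters' processing notes. Aligner and counter: not given in the sources used here. The strand setting was not stated either.

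Counts were rounded, filtered with filterByExpr (minimum count 10), scaled with TMM and tested with edgeR 4.0.16 (glmQLFit and glmQLFTest, R 4.3.3, limma 3.58.1), which left 14427 genes. Log2 CPM of a library used a prior count of 2. The biological coefficient of variation was 30.2%. On simulated data for this comparison (14264 genes), the test recovered 22 of 100 genes at a 2-fold change and 90 of 100 at a 4-fold change, with 4 false calls. The scaling was replaced by total counts, by upper-quartile factors or by size factors of DESeq2 1.42.0. The filter was dropped or set to 10 counts in each library. The test was replaced by DESeq2's Wald test, limma-voom or limma on log2(TPM + 1) and log2(TPM + 0.1). Further fits had the replicate number as a block or left out each library. Medians and the gap between enzymes and peroxins without called genes were added after seeing the data.

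The members and lists were chosen with earlier results of these data known. Values in every library are given for called members, up to 4 members of smallest p per class, the member of highest mean TPM per class and Pex5, Pex11a, Cat, Acox3, Ehhadh, Hsd17b4, Abcd3, Phyh, Agps and Gnpat. From the pathway lists, called genes and the 2 of smallest p per list are named, except 2 genes that are not reported here. Of the 80 listed pathway genes, 77 were in the table. Promoters are from RefSeq (GRCr8), which matched 32 of the 35 genes. The planned search for targeting signals in the proteins was not run. In GRCr8, 8 members overlap another coding gene and 4 have fractional counts (Pex19, Pex11g, Acaa1a and Acot8), so their counts may be shared with other genes. No coordinates were converted between builds.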

Additional observations from a re-analysis of the deposited data

How the results depend on the processing

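Genes called over the whole table numbered 112, against 38 with at least 10 counts required in every library, 1018 with DESeq2's Wald test and 14 (without DST-MNs 3) to 402 (without Control 1) with a library left out. The called members, 3 with every library, were 2, without Crot (adjusted p = 0.0532), with at least 10 counts in every library, 1 to 2 with a library left out and 1, Hacl1, with the replicate number as a block, while the called pathway genes were 0 to 1 with a library left out. Without Control 2, 3, DST-MNs 1, 2 or 3 the pathway count was 0. Same-numbered libraries correlated at -0.025, 0.10 and 0.11 in their deviations from the group means, so the numbers were not taken to pair the samples. With the block, adjusted p was 0.0260 for Hacl1, 0.0640 for Pxmp4 and 0.0508 for Crot. The median log2 change of all members, assembly genes and enzymes was 0.35, 0.28 and 0.26 with total counts, 0.37, 0.31 and 0.27 on log2(TPM + 1), and 0.38, 0.31 and 0.28 on log2(TPM + 0.1), where the membrane genes reached 0.88. With a library left out, medians ranged from 0.54 to 0.94 (without Control 1) for membrane genes, from 0.15 to 0.27 (without DST-MNs 2) for assembly genes and from 0.095 (without DST-MNs 3) to 0.24 (without DST-MNs 2) for enzymes. Phyh turned positive with total counts (0.036), on log2(TPM + 1) (0.080), on log2(TPM + 0.1) (0.083) and without Control 3 (0.0095), within -0.22 to 0.0095 over the fits without a library. Acox3, at -0.023 to 0.038 in those fits, turned negative without Control 2 (-0.023) or DST-MNs 2 (-0.011), and Ech1, at -0.17 to 0.13, without Control 2 (-0.015), Control 3 (-0.036) or DST-MNs 3 (-0.17). The cause of these shifts was not tested. Of the other values for the 20 members given library by library, 297 kept direction and side of the threshold, 13 lost the call and 1 gained it. Among the remaining members, Pex16 (-0.039 to 0.31), Scp2 (-0.0028 to 0.11), Pex13 (-0.10 to 0.040) and Decr2 (-0.14 to 0.23) also changed sign with a library left out. Limma-voom and the block each gave 4 negative enzymes in place of 3. With a library left out, 3 (without Control 1) to 6 (without DST-MNs 3) enzymes were negative. Library depth was even, and 3 libraries per group limit the power for changes near 2-fold.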
